A study of Mus musculus with 8 samples.

Results

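The 10 genes described here encode the core of the transforming growth factor beta (TGFβ) pathway and its intracellular brakes. They are the ligand *Tgfb1*, the receptors *Tgfbr1* and *Tgfbr2*, the signal transducers *Smad2*, *Smad3* and *Smad4*, the inhibitory *Smad7*, and the nuclear corepressors *Ski*, *Skil* and *Tgif1*. They were chosen by name as 10 of the 55414 genes in the count files, and all 10 passed the filter on low counts. RNAseq was done on spleen neutrophils of 4 WT and 4 *Cxcr2-/-* mice, each aged 10 weeks, on the FVB background and kept in a specific and opportunistic pathogen free facility, with 1 library per mouse. The *Cxcr2-/-* mice lack the chemokine receptor in the whole animal, so cells other than neutrophils lack it too. Neutrophils were enriched with a CD11b selection and sorted as CD45+ CD11b+ Ly6G+ F4/80- cells. The comparison asks how loss of Cxcr2 alters the RNA of a pathway that the study examined in these cells.

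TGFβ1 is secreted in a latent form and, once released, binds the type II receptor Tgfbr2, which recruits and phosphorylates the type I receptor Tgfbr1. The type I receptor phosphorylates Smad2 and Smad3, which join Smad4 and enter the nucleus to control transcription. Smad7 blocks the receptor, and Ski, Skil (also known as SnoN) and Tgif1 hold Smad target genes down. The genes of Smad7 and Skil are themselves induced by the pathway and form a negative feedback. In neutrophils, TGFβ is known for damping activation and for shaping the cells found in tumors.

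The libraries had totals on genes of 34220182 to 46233555 counts in WT and 37549648 to 43789253 in *Cxcr2-/-* samples. *Cxcr2* itself was at 1719 to 2252 CPM in WT and at 12.9 to 20.7 CPM in *Cxcr2-/-* libraries, in the direction of the labels, where CPM is the count on a gene scaled to the same TMM-normalized total in every library. The neutrophil markers *Ly6g*, *Itgam*, *S100a8* and *Csf3r* were detected in every library. Of 8 defining neutrophil markers, 5 were higher and 2 lower in *Cxcr2-/-* libraries, and their sum was 34179 to 47813 CPM in WT and 68470 to 81985 CPM in *Cxcr2-/-* libraries, without overlap. *S100a8* and *S100a9* were the highest of these genes in every library. Of the genes of the sort markers, *Ly6g* had a log2 fold change of 1.26 and *Ptprc*, the gene of CD45, one of -0.77. *Itgam*, the gene of CD11b, had one of 0.18 and did not pass (adjusted p = 0.173 by edgeR). *Csf3r*, the G-CSF receptor gene, had a log2 fold change of -1.06. The 8 marker genes of early neutrophil stages, among them *Mpo*, *Ltf* and *Cebpe*, were all higher in *Cxcr2-/-* libraries. Their summed level was 17422 to 21286 CPM in WT and 39881 to 58132 CPM in *Cxcr2-/-* libraries. Among the 8, *Ctsg* was at 0.0442 to 0.588 CPM in WT and at no less than 1.87 CPM in *Cxcr2-/-* libraries. It passed the filter on low counts through the *Cxcr2-/-* libraries alone, so its being higher is not read as a result. Of 6 B cell markers 5 were lower, and their sum was 63.1 to 143 CPM in WT and 28.3 to 63.4 CPM in *Cxcr2-/-* libraries. Macrophage and monocyte markers summed to 755 to 881 CPM over 10 genes in WT and to 890 to 1036 CPM in *Cxcr2-/-* libraries, with 2 lower and 2 higher. Among them *Adgre1*, the gene of F4/80, was at 26.6 to 36.5 CPM in WT and at 9.60 to 16.3 CPM in *Cxcr2-/-* libraries. The other lower gene was *Csf1r* (log2 fold change -0.93). The 2 higher genes were *Ccr2* (1.72) and *Ly6c2* (1.395), the latter at 194 to 270 CPM in WT and 573 to 663 CPM in *Cxcr2-/-* libraries. Read pairs that met no gene were 31.4% to 41.5% of all pairs in WT and 26.7% to 31.9% in *Cxcr2-/-* libraries. The part of these read pairs and of other cell types in the results below was not tested, apart from 2 fits given with the counts. Those fits took the mean level of markers of other cell types, or the percentage of such read pairs, as covariate. In such bulk samples, fewer cells of a type and less RNA per cell cannot be told apart.

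In spleen neutrophils of *Cxcr2-/-* mice, all 10 genes were lower than in WT, each with an adjusted p under 0.05 (edgeR, quasi-likelihood), and 0 were higher. Over the 16778 genes tested, 21.0% were lower and 23.7% higher by the same rule. The median log2 fold change (*Cxcr2-/-* over WT) of the 10 genes was -0.56, and that of all genes tested was 0.01. From these same samples the study had already reported a decrease of *Tgfb1*, *Tgfbr1*, *Tgfbr2*, *Smad2*, *Smad3* and *Smad4*. The 10 genes were chosen with earlier results of these data known. The shares of all genes given here are therefore background and no test of the set. With the added limit of a 1.5-fold change, 5 of the 10 were called lower, namely *Tgfb1*, *Tgfbr1*, *Tgfbr2*, *Smad3* and *Tgif1*, where 15.7% of all genes were called lower and 15.7% higher. In 8 of the 10 genes every *Cxcr2-/-* library lay below every WT library, as for 19.1% of all genes. Among the 3175 genes with a mean of at least 50 CPM, 31.2% passed as lower and 15.4% were called lower with 1.5-fold. Of these genes, 28.6% had every *Cxcr2-/-* library below every WT library. Of the 10 genes, *Tgif1* is the one below that level. With the mean level of 55 markers of other cell types as a covariate, all 10 genes still passed by edgeR. This mean, centred on the log2 scale, was -0.172 to 0.187 in WT and -0.345 to 0.221 in *Cxcr2-/-* libraries. It pools marker lists that moved in different directions, so that fit cannot remove the part of any single cell type. With the percentage of read pairs outside genes as a covariate, chosen after the data were seen, *Smad2*, *Smad4* and *Skil* did not pass (adjusted p = 0.294, 0.0611 and 0.203 by edgeR) and the other 7 did. In that fit the log2 fold change was -0.22 for *Smad2*, with an SE of 0.14, and -0.38 for *Smad4*, with an SE of 0.13, close to the values without the covariate but with larger errors. It was smaller in size for *Skil* (-0.27) and larger for *Smad7* (-0.73) and *Ski* (-0.77), so that 7 of the 10 genes were called with 1.5-fold.

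**Figure D1:**
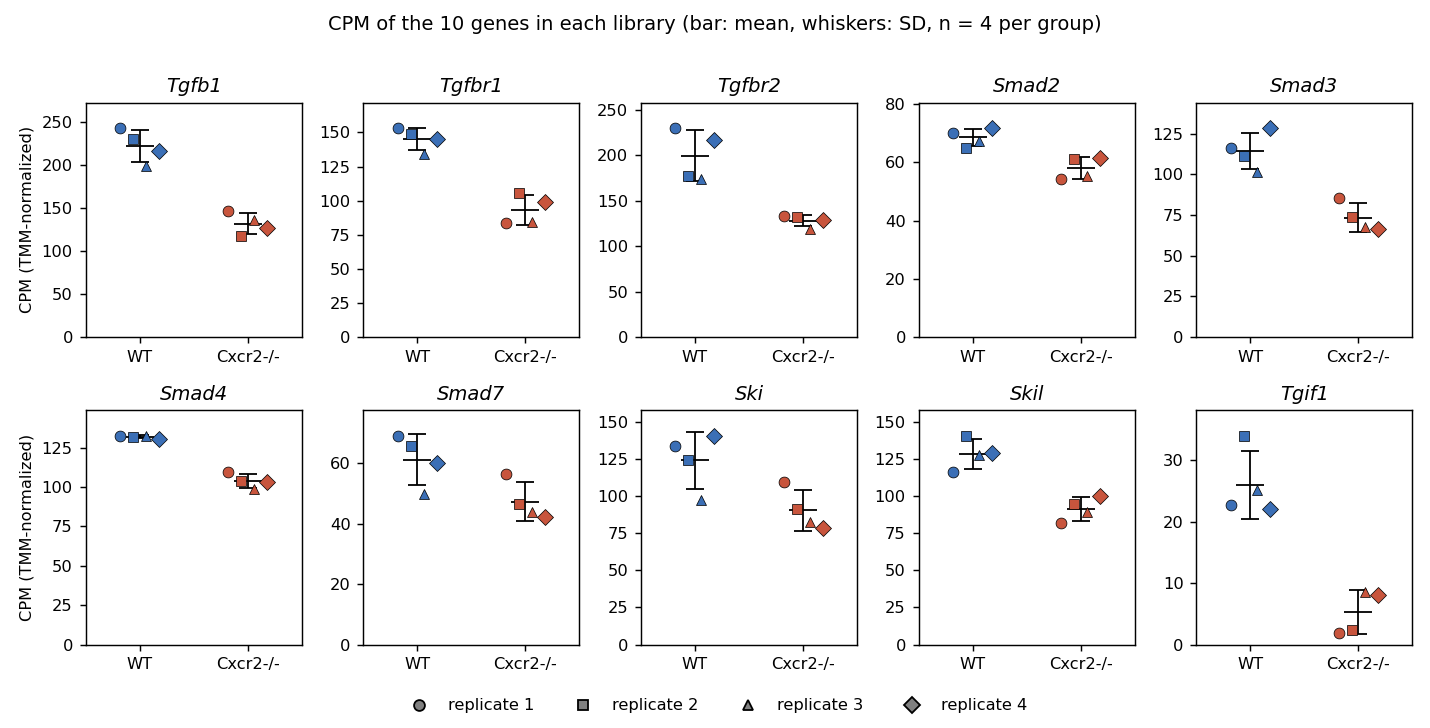
CPM (TMM-normalized, linear axis from 0) of the 10 genes in the 4 WT (blue) and 4 *Cxcr2-/-* (red) libraries, with the mean (bar) and SD (whiskers). The groups overlap for *Smad7* and *Ski* and are apart for the other 8 genes.

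The ligand *Tgfb1* (ENSMUSG00000002603, chromosome 7 from 25687002 to 25705077 of GRCm38, plus strand) was at 243, 230.3, 199 and 216 CPM in WT replicates 1 to 4 and at 146, 118, 136 and 127 CPM in *Cxcr2-/-* replicates 1 to 4. The lowest WT library was above the highest *Cxcr2-/-* library, and the *Cxcr2-/-* mean was 59.4% of the WT mean. The log2 fold change was -0.75 with a standard error (SE) of 0.10 (adjusted p = 6.87e-05 in the edgeR test). Platelets are a known rich source of TGFβ1. Platelet and megakaryocyte markers summed to 16.1 to 21.6 CPM over 8 genes in WT and to 10.4 to 15.7 CPM in *Cxcr2-/-* libraries, and 3 of the 4 tested were lower. Their defining genes *Pf4* and *Ppbp* were at or near 0 in every library, at most 0.0758 CPM for *Pf4* and 0.152 CPM for *Ppbp*. The 3 lower genes were *Gp1ba*, *Itga2b* and *Tubb1*. *Gp1ba* was at 9.28 to 13.1 CPM in WT and at 5.36 to 8.77 CPM in *Cxcr2-/-* libraries. *Tubb1* was at 0.607 to 0.774 CPM in WT and at 0.0763 to 0.340 CPM in *Cxcr2-/-* libraries. It passed the filter on low counts through the WT libraries, so its being lower is not read as a result. The part of platelets in the level of *Tgfb1* was not tested.

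The type I receptor *Tgfbr1* (chromosome 4 from 47353222 to 47414931, plus strand) was at 153, 149, 134 and 145 CPM in WT and at 83.2, 106, 84.7 and 99.2 CPM in *Cxcr2-/-* replicates 1 to 4. The type II receptor *Tgfbr2* (chromosome 9 from 116084293 to 116175360, minus strand) was at 230.3, 177, 175 and 217 CPM in WT and at 133, 132, 119 and 129 CPM in *Cxcr2-/-* replicates 1 to 4. Both receptors were apart between the groups, and both fell to about the same share of the WT mean, 64.1% for *Tgfbr1* and 64.2% for *Tgfbr2*. Their log2 fold changes were -0.64 for each, with SEs of 0.10 for *Tgfbr1* and 0.11 for *Tgfbr2* and adjusted p of 2.25e-04 for *Tgfbr1* and 4.06e-04 for *Tgfbr2* in the edgeR test. The log2 ratio of *Tgfbr1* to *Tgfbr2* counts within a library, which needs no scaling between libraries, was -0.45 ± 0.16 in WT and -0.47 ± 0.16 in *Cxcr2-/-* libraries (SD, n = 4 each). The difference of -0.02 was smaller than the spread between mice (exact permutation test, two-sided, p = 0.914 also after adjustment over 3 ratios, where the smallest p possible is 0.0286).

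*Smad3* and *Smad2* are the receptor-regulated Smads of this branch. *Smad3* (chromosome 9 from 63646767 to 63757994, minus strand) was at 116, 111, 101 and 129 CPM in WT and at 85.7, 73.9, 67.4 and 66.2 CPM in *Cxcr2-/-* replicates 1 to 4. *Smad2* (chromosome 18 from 76241580 to 76310963, plus strand) was at 70.2, 65.1, 67.4 and 71.8 CPM in WT and at 54.3, 61.1, 55.2 and 61.7 CPM in *Cxcr2-/-* replicates 1 to 4. For *Smad2* the groups were apart by a small margin, from 61.7 CPM in the highest *Cxcr2-/-* library to 65.1 CPM in the lowest WT library. The *Cxcr2-/-* mean was 64.1% of WT for *Smad3* (log2 fold change -0.64, SE 0.11, adjusted p = 3.82e-04 in the edgeR test) and 84.6% for *Smad2* (log2 fold change -0.24, SE 0.08, adjusted p = 0.0314 by the same edgeR test). *Smad2* did not pass in 5 of the 8 fits that left out 1 library, namely those without WT replicate 1, 3 or 4 or without *Cxcr2-/-* replicate 1 or 3, with adjusted p up to 0.0953 by edgeR.

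Within each library, the log2 ratio of *Smad3* to *Smad2* counts was 0.73, 0.78, 0.59 and 0.84 in WT and 0.66, 0.27, 0.29 and 0.10 in *Cxcr2-/-* replicates 1 to 4. *Cxcr2-/-* replicate 1 lay inside the WT range and the other 3 below it. The mean ratio fell by 0.40 on the log2 scale, from 0.73 ± 0.11 to 0.33 ± 0.23 (SD, n = 4 each), which did not pass (exact permutation test, two-sided, p = 0.0571, and 0.171 adjusted over 3 ratios).

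*Smad4*, the partner shared by the TGFβ and BMP branches, had the least spread of the 10 genes in WT, with 132.6, 132.0, 132.5 and 130.6 CPM (coefficient of variation 0.711%). It was at 109, 104, 98.5 and 103 CPM in *Cxcr2-/-* replicates 1 to 4. The gene (chromosome 18 from 73639009 to 73703780, minus strand) was apart between the groups, and its *Cxcr2-/-* mean was 78.7% of the WT mean (log2 fold change -0.35, SE 0.08, adjusted p = 0.00302 in the edgeR test). GENCODE M21 places a processed pseudogene inside *Smad4* on the opposite strand, with no exon bases in common, and no other annotated gene overlaps any of the 10.

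The inhibitory *Smad7* (chromosome 18 from 75367529 to 75395935, plus strand) was at 69.2, 65.9, 49.9 and 60.1 CPM in WT and at 56.7, 46.6, 43.8 and 42.1 CPM in *Cxcr2-/-* replicates 1 to 4. WT replicate 3 lay below *Cxcr2-/-* replicate 1, so the groups overlapped. The log2 fold change was -0.37 with an SE of 0.12 (adjusted p = 0.0246 in the edgeR test). Without WT replicate 1, or without *Cxcr2-/-* replicate 2, 3 or 4, *Smad7* did not pass (adjusted p 0.0544 to 0.0809 by edgeR). The feedback inhibitor was thus at 77.2% of its WT mean, between *Smad2* and the receptors.

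Of the Ski family corepressors, *Ski* (chromosome 4 from 155154075 to 155222592, minus strand) was at 134, 124, 97.3 and 141 CPM in WT and at 109, 91.3, 82.3 and 78.4 CPM in *Cxcr2-/-* replicates 1 to 4. *Skil* (chromosome 3 from 31095058 to 31122577, plus strand) was at 116, 141, 127 and 129 CPM in WT and at 81.7, 94.4, 88.9 and 100.1 CPM in *Cxcr2-/-* replicates 1 to 4. The groups overlapped for *Ski*, through WT replicate 3 and *Cxcr2-/-* replicate 1, and were apart for *Skil*. Log2 fold changes were -0.46 for *Ski* (SE 0.13, adjusted p = 0.0133) and -0.49 for *Skil* (SE 0.09, adjusted p = 0.00110) in the edgeR test. The log2 ratio of *Skil* to *Ski* was 0.06 ± 0.28 in WT and 0.02 ± 0.32 in *Cxcr2-/-* libraries (SD, n = 4 each), a difference of -0.04 that was smaller than the spread (exact permutation test, two-sided, p = 0.8286, and 0.914 adjusted over 3 ratios).

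*Tgif1*, a homeodomain corepressor of Smad2 and Smad3, had the largest fold change of the 10 genes. The gene (chromosome 17 from 70844205 to 70853546, minus strand) was at 22.8, 34.02, 25.1 and 22.0 CPM in WT and at 1.90, 2.35, 8.59 and 8.07 CPM in *Cxcr2-/-* replicates 1 to 4. Each *Cxcr2-/-* library lay below each WT library, and those of replicates 1 and 2 lay well below those of replicates 3 and 4. The *Cxcr2-/-* mean was 20.1% of the WT mean (log2 fold change -2.31, SE 0.40, adjusted p = 5.23e-04 in the edgeR test), and 1.02% of all genes tested had a lower log2 fold change. The counts behind the lowest library were 75, against at least 762 in WT. The coefficient of variation was 68.8% in *Cxcr2-/-* and 21.2% in WT libraries. With 1 library left out, the log2 fold change stayed between -2.65 and -2.03. *Mpo*, the myeloperoxidase gene of early neutrophil stages, was likewise low in *Cxcr2-/-* replicates 1 and 2, at 19.1 and 20.2 CPM, and higher in replicates 3 and 4, at 81.2 and 145.8 CPM, but it was at most 6.25 CPM in WT. Of the same marker list, *Elane*, *Prtn3* and *Ctsg* had this split too, whereas *Ltf*, *Camp*, *Ngp* and *Cebpe* were highest in replicate 1. The sum of that list was 58132, 48560, 47662 and 39881 CPM in *Cxcr2-/-* replicates 1 to 4. The part of other cells or stages in the spread of *Tgif1* was not tested.

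**Figure D2:**
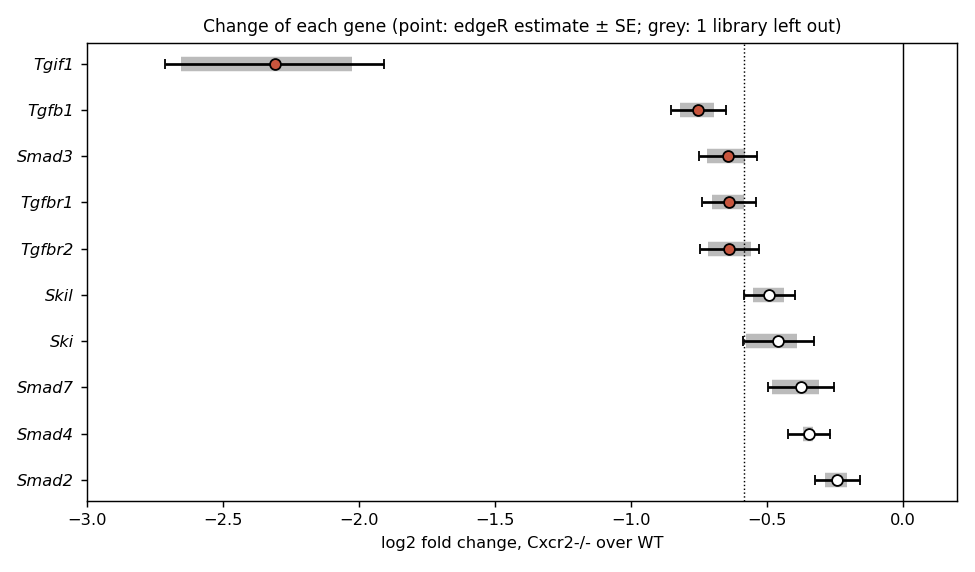
Log2 fold change (*Cxcr2-/-* over WT) of the 10 genes as the edgeR estimate ± SE, with the range over the 8 fits that left out 1 library in grey. The dotted line marks a 1.5-fold fall, red points are called with that limit, and all points lie below 0, from -2.31 for *Tgif1* to -0.24 for *Smad2*.

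The 5 genes past 1.5-fold are shown with the bases before their first start in the RefSeq promoter table (GRCm38.p6). A role of these sequences in the lower levels was not tested. Sequences run 5′ to 3′ on the gene's strand and stop before the gene as GENCODE M21 places it. Capitals mark CAGACA, a Smad-binding element, or its reverse complement TGTCTG, and GGGCGG, the GC box bound by Sp1, or its reverse complement CCGCCC. The GC box was added to the search after the sequences were seen.
*Tgfb1*, chr7:25686752-25687001, plus strand: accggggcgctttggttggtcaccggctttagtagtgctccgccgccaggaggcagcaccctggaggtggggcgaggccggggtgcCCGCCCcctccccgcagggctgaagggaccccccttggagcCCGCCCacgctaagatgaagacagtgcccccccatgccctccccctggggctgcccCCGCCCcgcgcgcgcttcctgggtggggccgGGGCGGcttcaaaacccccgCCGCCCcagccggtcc
*Tgfbr1*, chr4:47352972-47353221, plus strand: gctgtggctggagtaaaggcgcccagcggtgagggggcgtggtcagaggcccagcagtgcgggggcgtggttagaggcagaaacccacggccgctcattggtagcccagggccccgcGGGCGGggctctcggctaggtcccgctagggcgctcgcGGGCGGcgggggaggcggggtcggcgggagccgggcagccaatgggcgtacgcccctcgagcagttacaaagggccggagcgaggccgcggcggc
*Tgfbr2*, chr9:116175364-116175613, minus strand: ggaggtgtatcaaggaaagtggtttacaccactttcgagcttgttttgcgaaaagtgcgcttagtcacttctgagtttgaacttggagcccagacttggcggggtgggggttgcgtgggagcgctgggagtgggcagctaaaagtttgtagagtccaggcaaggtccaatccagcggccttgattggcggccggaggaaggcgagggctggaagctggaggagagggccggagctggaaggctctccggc
*Smad3*, chr9:63757995-63758244, minus strand: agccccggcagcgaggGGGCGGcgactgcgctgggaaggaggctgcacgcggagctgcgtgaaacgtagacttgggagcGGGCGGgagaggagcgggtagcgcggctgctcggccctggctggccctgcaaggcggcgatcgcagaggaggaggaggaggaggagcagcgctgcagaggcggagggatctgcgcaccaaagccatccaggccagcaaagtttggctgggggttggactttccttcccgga
*Tgif1*, chr17:70853547-70853782, minus strand: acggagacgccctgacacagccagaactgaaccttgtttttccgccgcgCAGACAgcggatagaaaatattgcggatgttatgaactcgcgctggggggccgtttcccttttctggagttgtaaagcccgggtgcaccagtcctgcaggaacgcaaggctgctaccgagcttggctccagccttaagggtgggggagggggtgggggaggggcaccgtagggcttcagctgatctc

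Of the 10 genes, 6 had at least 1 start in the table, with 11 starts in all. *Smad2*, *Smad4*, *Smad7* and *Skil* had none. In the 250 bases before the start, GC content was 75.2% for *Tgfb1*, 74.8% for *Tgfbr1*, 58.4% for *Tgfbr2*, 69.2% for *Smad3* and 59.6% for *Tgif1*, and the median over all 32851 starts was 52.4%. CAGACA, on either strand, was found once before the first start of *Tgif1*, in none of the other 4 windows shown, and once each before the second starts of *Tgif1* and *Tgfbr1*, and 17.1% of all starts hold it. The GC box was found 5 times before *Tgfb1* and 2 times each before the first start of *Tgfbr1* and before *Smad3*, 5 times before *Ski*, 5 times before the third start of *Tgif1* and 1 time before the fourth, and in none of the other windows, and 32.7% of all starts hold at least 1. The palindrome GTCTAGAC, held by 0.167% of all starts, was in none of the 11 windows.

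Levels can be compared between genes per length, as CPM per kb of annotated exon. In WT the order of these levels was *Tgfb1* (44.1 ± 3.78), *Smad4* (35.5 ± 0.253), *Tgfbr2* (24.4 ± 3.43), *Ski* (22.3 ± 3.43), *Tgfbr1* (22.2 ± 1.27), *Smad3* (20.6 ± 2.04), *Smad7* (13.6 ± 1.88), *Skil* (13.2 ± 1.05), *Smad2* (7.82 ± 0.342) and *Tgif1* (4.62 ± 0.981 CPM per kb, SD, n = 4). The libraries of *Tgfbr2*, *Ski*, *Tgfbr1* and *Smad3* overlapped from each gene to the next, as did those of *Smad7* and *Skil*, so that these neighbours did not differ beyond their spread. *Smad3* was thus at a higher level per kb than *Smad2* in every WT library. In *Cxcr2-/-* libraries *Smad4* (28.0 ± 1.21 CPM per kb) and *Tgfb1* (26.2 ± 2.43 CPM per kb) overlapped at the top, followed by *Ski*, *Tgfbr2*, *Tgfbr1* and *Smad3*, from 16.2 to 13.2 CPM per kb, whose libraries overlapped from one to the next. *Smad2*, at 6.61 ± 0.438 CPM per kb, and *Tgif1*, at 0.929 ± 0.639 CPM per kb, were again the lowest.

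**Figure D3:**
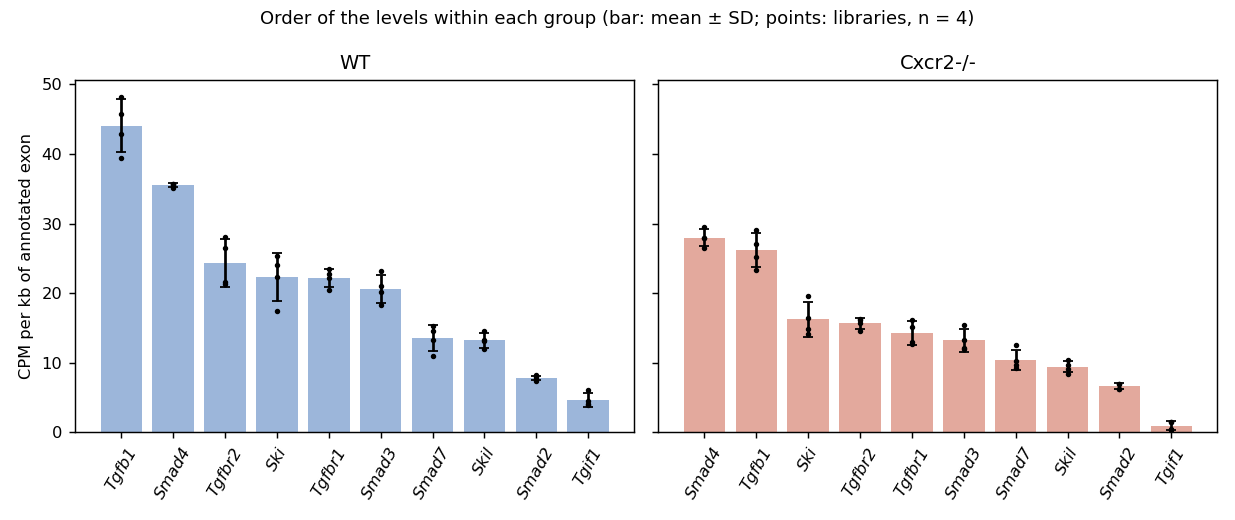
Level of each gene as CPM per kb of annotated exon (linear axis from 0) in WT (left) and *Cxcr2-/-* (right) libraries, sorted within each group (bar, mean ± SD; points, 4 libraries). *Tgfb1* is first in WT at 44.1 CPM per kb and overlaps *Smad4* in *Cxcr2-/-* libraries.

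The other genes of the pathway, taken from lists by role, did not move in 1 direction. Of 93 tested genes other than the 10, 21 passed as lower and 26 as higher (adjusted p under 0.05 in the edgeR test), and 46 did not pass. That is 22.6% lower and 28.0% higher, near the 21.0% and 23.7% of all genes, and their median log2 fold change was -0.03. The log2 fold changes and adjusted p in the following paragraphs are from the same edgeR fit.

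Among ligands and their binding proteins, 1 of 6 other tested genes was lower and 3 were higher. *Inhba*, the beta A subunit of activin A, was at 45.5 to 56.9 CPM in WT and at 116 to 189 CPM in *Cxcr2-/-* libraries, a log2 fold change of 1.62 (SE 0.15, adjusted p = 5.07e-06 by edgeR). Activin A signals through Smad2 and Smad3 as well. Its antagonists *Fst*, the follistatin gene (log2 fold change 1.45, adjusted p = 0.00130 by edgeR), and *Fstl3* (1.15, adjusted p = 0.00119 by edgeR) rose from low levels, 0.859 to 2.34 CPM for *Fst* and 1.62 to 3.61 CPM for *Fstl3*. *Nodal* fell from 1.39 to 0.609 CPM (log2 fold change -1.19, adjusted p = 0.00627 by edgeR). *Tgfb2* and *Tgfb3* did not pass the filter on low counts, with means of at most 0.167 CPM, so that *Tgfb1* was the one TGFβ gene at a level that could be tested.

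In the storage and activation of latent TGFβ, 3 of 8 tested genes were lower and 2 higher. *Thbs1*, encoding thrombospondin 1, an activator of latent TGFβ and also a target of the pathway, was at 525 to 1002 CPM in WT and at 125 to 259 CPM in *Cxcr2-/-* libraries (log2 fold change -2.14, SE 0.26, adjusted p = 3.78e-05 by edgeR). *Furin*, the protease that cleaves the TGFβ1 precursor, was at 568 ± 93.6 CPM in WT mice and 430.0 ± 53.2 CPM in *Cxcr2-/-* libraries (n = 4 each), with overlap (log2 fold change -0.40, adjusted p = 0.0268 by edgeR). *Nrros*, which holds latent TGFβ1 on myeloid cells, was at 306 CPM in WT mice and 243 CPM in *Cxcr2-/-* libraries (log2 fold change -0.33, adjusted p = 0.0108 by edgeR), and it was named after its values were seen. The proteases *Plau* (log2 fold change 1.46, adjusted p = 8.79e-06 by edgeR) and *Mmp9* (0.64, adjusted p = 0.00415 by edgeR) were higher.

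Receptors of the wider family went in the direction opposite to *Tgfbr1* and *Tgfbr2* for 4 of 9 other tested genes, and 1 was lower. *Acvrl1*, encoding the type I receptor Alk1, was at 93.0 to 106 CPM in WT and at 290 to 432 CPM in *Cxcr2-/-* libraries (log2 fold change 1.84, SE 0.13, adjusted p = 4.66e-07 by edgeR). *Acvr1b*, the activin type I receptor Alk4, rose from 37.1 ± 4.70 to 114 ± 6.48 CPM (n = 4 each, log2 fold change 1.62, adjusted p = 2.53e-07 by edgeR). *Bmpr2*, a type II BMP receptor, rose by 0.72 on the log2 scale (adjusted p = 2.26e-04 by edgeR), and the co-receptor *Tgfbr3* by 0.61 from 1.54 CPM (adjusted p = 0.0228 by edgeR). The receptor RNA of these neutrophils thus moved both ways, with *Tgfbr1* and *Tgfbr2* lower and *Acvrl1* and *Acvr1b* higher.

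Of the other Smads, *Smad1*, *Smad5* and *Smad9* were tested and none passed. *Smad5*, the highest of the 3 in CPM, was at 5.73 ± 1.05 CPM in WT mice and 7.41 ± 1.09 CPM in *Cxcr2-/-* libraries (n = 4 each, log2 fold change 0.37, adjusted p = 0.0943 by edgeR). *Smad6* did not pass the filter on low counts. All 4 Smads with a lower level, *Smad2*, *Smad3*, *Smad4* and *Smad7*, are among the 10 genes.

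**Figure D4:**
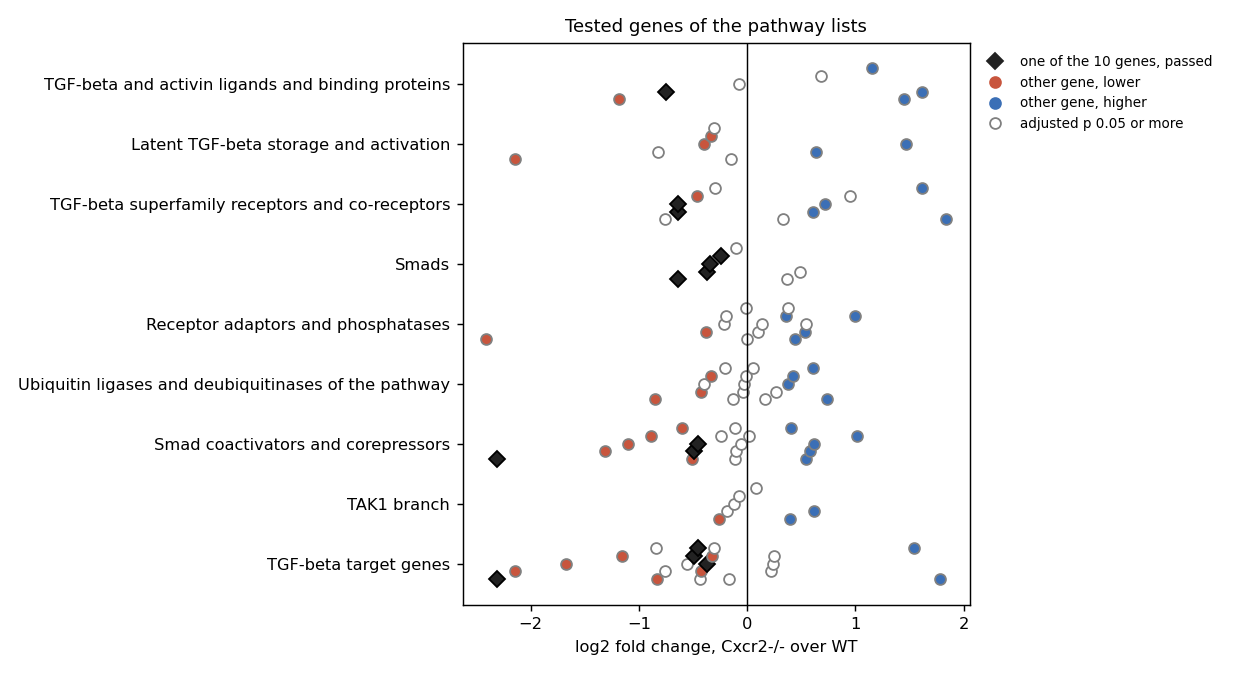
Log2 fold change (*Cxcr2-/-* over WT) of each tested gene of 9 lists of the pathway; black diamonds are the 10 genes, filled circles passed an adjusted p of 0.05 and open symbols did not. The black diamonds lie left of 0 in each list that holds any, and other genes lie on both sides, from -2.41 for *Ppp1r15a* to 1.84 for *Acvrl1*.

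Smad cofactors other than *Ski*, *Skil* and *Tgif1* were split, with 5 of 16 lower and 5 higher. *Tgif2*, the paralog of *Tgif1*, fell from 4.65 ± 0.742 to 1.87 ± 0.501 CPM (n = 4 each, log2 fold change -1.31, adjusted p = 4.20e-04 by edgeR). *Zeb2*, a Smad-interacting repressor, fell from 146 to 68.0 CPM (log2 fold change -1.10, adjusted p = 5.13e-04 by edgeR) and *Runx3* from 8.998 to 4.85 CPM (log2 fold change -0.89, adjusted p = 0.00427 by edgeR). *Ncor1*, a scaffold on which Ski and Skil act and the highest of the list in CPM, was at 790 ± 70.0 CPM in WT mice and 555 ± 61.4 CPM in *Cxcr2-/-* libraries (log2 fold change -0.51, adjusted p = 0.00254 by edgeR). The corepressor *Ctbp1* rose from 84.0 to 170.2 CPM (log2 fold change 1.02, adjusted p = 5.83e-05 by edgeR).

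Among ubiquitin ligases and deubiquitinases that act on receptors and Smads, 3 of 16 were lower and 4 higher. *Nedd4l*, a ligase for activated Smad2 and Smad3, fell from 94.7 to 52.6 CPM (log2 fold change -0.85, adjusted p = 9.60e-06 by edgeR). *Smurf1*, a ligase brought to the receptor by Smad7, rose from 25.2 to 42.0 CPM (log2 fold change 0.74, adjusted p = 1.67e-04 by edgeR). *Arrb2*, encoding beta-arrestin 2, rose by 0.61 on the log2 scale (adjusted p = 0.00603 by edgeR) and the ligase *Nedd4* by 0.43 (adjusted p = 0.00156 by edgeR). *Rnf111*, the ligase that degrades Ski, Skil and Smad7, was at 142 CPM in WT mice and 138 CPM in *Cxcr2-/-* libraries (log2 fold change -0.04, adjusted p = 0.735 by edgeR), and it was named after its values were seen.

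Receptor adaptors and phosphatases had 2 of 14 genes lower and 4 higher. *Ppp1r15a*, known as Gadd34, which brings a phosphatase to the type I receptor through Smad7 and is also a stress-induced gene, was at 159 to 249 CPM in WT and at 21.1 to 54.5 CPM in *Cxcr2-/-* libraries (log2 fold change -2.41, SE 0.27, adjusted p = 1.86e-05 by edgeR). Like *Tgif1*, it was lower in *Cxcr2-/-* replicates 1 and 2, at 27.0 and 21.1 CPM, than in replicates 3 and 4, at 54.5 and 51.7 CPM. The phosphatase genes *Ctdspl* (log2 fold change 0.996), *Ppp1ca* (0.53) and *Ctdsp1* (0.44) were higher, with adjusted p of 8.17e-06 for *Ctdspl*, 0.00257 for *Ppp1ca* and 0.00874 for *Ctdsp1* by edgeR. In the TAK1 branch, which carries the receptor's signal to MAP kinases, 1 of 7 genes was lower and 2 were higher. *Map3k7*, the TAK1 gene, rose by 0.61 and *Tab1* by 0.40 on the log2 scale, and *Tab2*, the highest in CPM, fell by 0.26 (adjusted p of 3.16e-04 for *Map3k7*, 0.0115 for *Tab1* and 0.0383 for *Tab2* by edgeR).

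Genes known as TGFβ targets in other cells, besides the 4 targets among the 10, were lower in 6 of 17 tested and higher in 2, with a median log2 fold change of -0.42. Over all genes tested, 21.0% were lower and 23.7% higher by the same rule. The other 9 of the 17 in this list did not pass. This list held *Thbs1*, given above, and *Tgfbi*, the highest in CPM, at 948 ± 130 CPM in WT mice and 707 ± 32.4 CPM in *Cxcr2-/-* libraries (n = 4 each, log2 fold change -0.42, adjusted p = 0.00865 by edgeR). The early response genes *Klf10* (log2 fold change -1.16, adjusted p = 4.75e-06 by edgeR) and *Klf11* (-0.83, adjusted p = 0.00873 by edgeR), named after their values were seen, were lower, from 152 to 67.9 CPM for *Klf10* and from 58.4 to 32.8 CPM for *Klf11*. The cell cycle inhibitor *Cdkn2b*, 1 of the 6 lower genes, was at 0.321 to 0.764 CPM in WT and 0.0506 to 0.221 CPM in *Cxcr2-/-* libraries. It passed the filter on low counts through the WT libraries alone, so its being lower is not read as a result. *Snai1* rose from 2.48 to 7.23 CPM (log2 fold change 1.54, adjusted p = 2.71e-04 by edgeR), and *Fn1*, the fibronectin gene, from 24.0 ± 6.52 to 82.7 ± 61.8 CPM, with overlap between the groups (log2 fold change 1.78, adjusted p = 0.00831 by edgeR). The target gene *Pmepa1* did not pass the filter on low counts, and *Ccn2* had no count in these libraries, so these cells gave no reading of either.

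The genes whose levels followed *Tgfb1* most closely over the 8 libraries, by Pearson's r of log2 (CPM + 1) among 6552 protein-coding genes with a mean of at least 10 CPM, were *Sqstm1* (r = 0.988), *Tnfaip2* (r = 0.988) and *Ier2* (r = 0.988). Their *Cxcr2-/-* means were 66.4%, 42.2% and 39.3% of the WT means. The 8 libraries hold both groups, so the r includes the difference between them, and 206 genes had an r over 0.95. Of the other 9 genes of the core, *Smad4* had the highest r to *Tgfb1* (0.952) and *Smad2* the lowest (0.755).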

How the data were processed

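Per the labels and the study's methods, rRNA-depleted directional libraries were made from sorted spleen neutrophils, 1 per mouse, and sequenced in pairs. After trimming, the authors used STAR for alignment (mm10) and HTSeq for counting. They deposited raw counts per gene for each library. The submitters' processing notes also name FastQC. Versions, strand setting and annotation release are not given in the sources used here.

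From these counts, 55414 gene IDs were read, of which 52133 matched GENCODE M21 (GRCm38) after removal of version suffixes, and the rest held 1.42% of counts. Positions and exon lengths are those of M21. HTSeq's summary rows were left out of library sizes. Genes were filtered with filterByExpr, leaving 16778, and tested with edgeR 4.0.16 (R 4.3.3) by TMM scaling, the quasi-likelihood test and Benjamini-Hochberg adjustment over all genes tested. A gene passed at an adjusted p under 0.05 and was called with a change of at least 1.5-fold besides. Depth gave at least 1685 counts per library for each of the 10 genes except *Tgif1*. Ratios between genes were tested with exact permutation tests (scipy 1.17.1). DESeq2 1.42.0, other scalings and filters, a replicate block, covariates and fits without 1 library were alternatives. The edgeR procedure was first tested on simulated counts. Replicate libraries differed by more than sampling noise, with a chi-square per gene of 23.9 to 99.0. Promoter sequences are RefSeq's (GRCm38.p6).

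The 10 genes, the pathway lists and the marker lists were chosen with earlier results of these data known. Other genes were named by a rule, which took from each pathway list up to 4 passing genes with the largest absolute log2 fold change and the gene with the highest mean CPM, and the 3 protein-coding genes most like *Tgfb1*. Genes named as markers or as too low to test fall outside it. So do *Smad1* and *Smad9*, and *Nrros*, *Rnf111*, *Klf10* and *Klf11*, which were named after their values were seen.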

Additional observations from a re-analysis of the deposited data

How the results depend on the processing

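Over 18 alternatives, the 10 genes kept a negative log2 fold change in all 180 fitted values, and 167 stayed on their side of the threshold. *Smad2* did not pass without the filter on low counts (-0.26, adjusted p = 0.0667 by edgeR). With the covariate for reads outside genes, chosen after seeing the data, *Smad2* (-0.22), *Smad4* (-0.38) and *Skil* (-0.27) did not pass, *Smad7* (-0.73) and *Ski* (-0.77) came past 1.5-fold so that 7 of the 10 were called, and calls over all genes were 1503 higher and 1341 lower, against 2628 and 2628. Without a fold limit 3969 genes were higher and 10 of the 10 genes were called lower; with a 2-fold limit 1255 were higher, 1599 lower, and 1 of the 10, *Tgif1*, was called. The cause of these changes, other than the thresholds themselves, was not tested.

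With 1 library left out, the log2 fold change ranged from -0.29 to -0.20 for *Smad2* and from -0.48 to -0.31 for *Smad7*. Below 1.5-fold came *Tgfbr2* without WT replicate 1 (-0.56), *Smad3* without WT replicate 4 (-0.58) and *Tgfbr1* without *Cxcr2-/-* replicate 1 (-0.58). The difference in log2 ratio ranged from -0.0652 to 0.0525 for *Tgfbr1* to *Tgfbr2* and from -0.15 to 0.11 for *Skil* to *Ski*, so neither has a settled sign. Upper-quartile scaling moved the median of all genes to -0.11 and total counts to -0.08, and calls were 1975 higher and 3227 lower, and 2051 higher and 2990 lower, respectively.

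The labels number replicates alike in both groups without naming a shared origin. Same-numbered libraries had correlations of their deviations of -0.308 to 0.245, and others of -0.27 to 0.303. With 4 libraries per group, these values cannot decide whether same-numbered libraries had a shared origin. With the replicate block, 2470 genes were called higher and 2518 lower, and 5 of the 10 were called (*Tgif1* at -2.53). Precision rests on 4 mice per group, and nothing here measures protein.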

Other observations

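Single libraries stood at the edge of their group for several of the 10 genes. WT replicate 3 was the lowest of its group for 6 of them (*Tgfb1*, *Tgfbr1*, *Tgfbr2*, *Smad3*, *Smad7* and *Ski*). *Cxcr2-/-* replicate 1 was the highest of its group for 6 (*Tgfb1*, *Tgfbr2*, *Smad3*, *Smad4*, *Smad7* and *Ski*) and the lowest for the other 4. *Smad4*, *Smad7* and *Smad2* lie in this order on chromosome 18, with 1664 kb between the first pair and 845.6 kb between the second.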
